A study of Mus musculus with 6 samples.

Results

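The newborn pancreas of wild-type mice was described here from 2 of the series' 6 arrays, those whose labels give the genotype Spink3+/+. The tissue was the whole pancreas of C57BL/6N mice, harvested at postnatal day 0.5 and frozen at once, without any treatment, and the mice carry both intact copies of Spink3. In the series they serve as the wild type beside 2 other genotypes, which were not compared here. Total RNA was labelled with Cy3 and hybridised to a single-colour Agilent mouse array, 1 array per sample. The labels do not say whether the 2 samples came from separate animals or how many animals each holds, so the spread between them may be technical. A whole pancreas mixes acinar, duct, islet, stromal, vascular and blood cells, and fewer cells of a type and less RNA per cell cannot be told apart in it.

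The exocrine pancreas consists mainly of acinar cells, which make digestive enzymes and their inactive precursors, fold them in a large endoplasmic reticulum and store them in zymogen granules. Hormones come from the islets: insulin from beta cells, glucagon from alpha cells, somatostatin from delta cells, pancreatic polypeptide from PP cells and, around birth, ghrelin from epsilon cells. Spink3 is a small trypsin inhibitor that acinar cells pack with the trypsinogens.

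A level in what follows is the log2 of a probe's processed signal minus the 75th percentile of that array, so 0 is the 75th percentile and a level of 4 is 16 times it. Every gene was represented by its brightest probe that was well above background, and values are given for replicate 1 and then replicate 2. With 1 group of 2 samples no test is possible, and the 2 values are the measurement and its error. Of 23343 genes with a named probe, 12687 (54.4%) were well above background on both arrays, 1832 on 1 array and 8824 on neither. A mean level over 4 was reached by 1558 of the 23343 genes (6.67%). The shares of 54.4% and 6.67% are the background for the counts of every list below. The median level was 0.96 among the genes well above background on both arrays and -1.38 among all genes.

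The number of arrays limits the precision. Levels of the 12687 genes had a Pearson correlation of 0.986 and a Spearman correlation of 0.979 between the arrays, a description across genes that share the same probes. The median difference between the arrays was 0.18 in either direction, and 95% of genes differed by at most 0.72. No spot was saturated, and the brightest signals, 5.52 and 5.57 on the log10 scale, lay below the top of the linear range that the spike-in controls gave (5.76 and 5.75). Probes of 1 gene differed far more than the arrays did. Among 2902 genes with at least 2 probes above background and none of the recurring words described below, the probes spanned a median of 1.64 and over 4.24 in the widest 10%. A rank by level is therefore an order of probe signals, not of transcript amounts.

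The 30 genes with the highest mean level, among those with a plain symbol, spanned only 10.24 to 11.33. Of these, 12 encode digestive enzymes or colipase, and 13 rest on a probe that holds a recurring word. The highest mean level belonged to Rn18s, the 18S ribosomal RNA, at 11.15 and 11.51. Pnliprp1, a lipase-related protein of acinar cells whose probe lies at chr19:58815028-58815621 of mm9, was 1st on replicate 1 and 4th on replicate 2, at 11.24 and 11.38. Only 2 of the 29 neighbouring pairs in this order were separated by more than the larger of their own between-array differences, and the largest gap between neighbours was 0.17. The order inside the top 30 is thus mostly within the spread of the 2 arrays, although 383 of its 435 pairs stood in the same order on both. Of the 30 genes, 28 were brighter on replicate 2, against 55.8% of all genes above background.

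Among the 100 brightest genes, 19 were digestive enzymes, 24 encode ribosomal proteins, 6 belong to the granule or hormone lists and 2 are alpha-globins. A further 25 were placed there by a probe with a recurring word, and 24 fell in none of these groups, among them Actb, Tpt1, Ftl1, Sparc and Pdia2. The 100 brightest on replicate 1 and on replicate 2 shared 98 genes. The 100 brightest probes together held 27.7% and 28.8% of the summed signal over all probes. Probes of the enzyme genes held 8.69% and 9.52%.

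The 25 genes with a recurring word are shown by sequence because their probes share letters with probes of many other genes. In all, 9 of them held words of B1, a short interspersed element present in the mouse genome in very many copies, 14 held words of B2, another such element, and 2 held a C-rich word. The names B1 and B2 were given to the words here and were not checked against a repeat reference. Stretches of 30 bases from 8 of these 60-base probes follow, read 5′ to 3′, with the recurring word in capitals.
Glrx2 (B1 word): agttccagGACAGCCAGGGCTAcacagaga
Elk1 (B1 word): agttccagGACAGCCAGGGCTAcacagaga
Kctd14 (B1 word): agttccagGACAGCCAGGGCTAtacaaaaa
Synrg (B2 word): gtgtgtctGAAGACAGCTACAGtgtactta
Medag (B2 word): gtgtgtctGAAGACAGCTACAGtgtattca
Pbld1 (B2 word): gagtgtctGAAGACAGCTACAGtgtaattt
Zfp628 (C-rich word): ctgcccccggCCCCGCCCCtgcccccgccc
Pebp1 (C-rich word): atgctgttccCCCCGCCCCcttgctaccct
The files place these probes in mm9 at chr1:145596708-145596767 (plus strand) for Glrx2, chrX:20510521-20510580 (minus) for Elk1, chr7:104606896-104606955 (plus) for Kctd14, chr11:83855517-83855576 (plus) for Synrg, chr5:150234212-150234271 (plus) for Medag, chr10:62540215-62540274 (plus) for Pbld1, chr7:4871046-4871105 (plus) for Zfp628 and chr5:117733163-117733222 (minus) for Pebp1. They give no exon or intron for them.

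Other probes of the same genes were much dimmer. Glrx2, a mitochondrial glutaredoxin, stood at 11.21 and 11.40 with the B1 word, and its brightest probe without a word at 2.24 and 2.32. Elk1, a transcription factor of the ETS family, stood at 10.90 and 11.02, and its other probe was not well above background on either array. Slc10a1, the bile acid transporter of hepatocytes, stood at 10.90 and 10.92, and its other probe was likewise not above background. Synrg had 10.19 and 10.31 with the B2 word against 5.16 and 5.14 without. Over the 20 of the 25 genes that had a probe without any such word, the brightest of those was dimmer by 2.68 to 15.4, with a median gap of 9.50. It reached a mean level over 4 for 4 of them and was not above background on both arrays for 3. Each gene was represented by its brightest probe, so the direction of these gaps was fixed in advance. Genes of the 100 brightest without a word also varied. Dnajc5 stood at 9.13 and 9.14 with its next probe at -0.52 and 0.03, and Tpt1 at 9.29 and 9.36 with its next at 9.24 and 9.29. Whether gaps are wider with a word was not tested.

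For several words, probes with the word on opposite strands differed widely in signal. GACAGCCAGGGCTA stood in 7 probes (0.0126% of the 55681), all above background on both arrays, with a median level of 10.80, while its reverse complement TAGCCCTGGCTGTC stood in 4 (0.00718%), with a median of 3.17. GAAGACAGCTACAG stood in 11 probes (0.0198%) with levels from 8.35 to 10.25, and its reverse complement CTGTAGCTGTCTTC in 2 (0.00359%) with a median of 0.90. Levels of the forward and reverse probes of these words did not overlap. The words were taken from probes already seen to be bright, in the orientation those probes carry, so this separation is no evidence about strand. CCCCGCCCC stood in 10 probes (0.0180%) at a median of 8.06, and GGGGCGGGG in 18 (0.0323%) at a median of -1.62. GAAGAAGAAGAA stood in 68 (0.122%) at a median of 7.30, and TTCTTCTTCTTC in 5 (0.00898%), none of them above background on both arrays. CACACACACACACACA was bright on either strand, with a median of 5.57 over 34 probes (0.0611%) and of 5.02 over the 71 (0.128%) with TGTGTGTGTGTGTGTG.

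The remaining words searched were AGCCTGGTCTACA and AATCCCAGCACT for B1, and CCCTCTTCTGG, CATGGTGGCTCACAACCA and GGCTGGAGAGATGGCTCAG for B2. They stood in 4 (0.00718%), 7 (0.0126%), 13 (0.0233%), 2 (0.00359%) and 4 (0.00718%) probes, and their reverse complements in 1, 8, 5, 0 and 2. For AATCCCAGCACT the strands overlapped, from -2.97 to 10.91 as spelled and from -4.73 to 3.71 reversed, and for GGCTGGAGAGATGGCTCAG the medians were 7.31 and 5.51. Words of 1 element can lie in the same probe. Together, 16 probes held a B1 word as spelled, with a median level of 10.22, and 13 held one reversed, with a median of 0.42. For B2 these were 23 probes at 9.31 and 8 probes at -1.30. The median of all 55681 probes was -2.93. All words were chosen after the brightest probes had been seen, so these medians and ranges describe the probes and support nothing further.

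**Figure D1:**
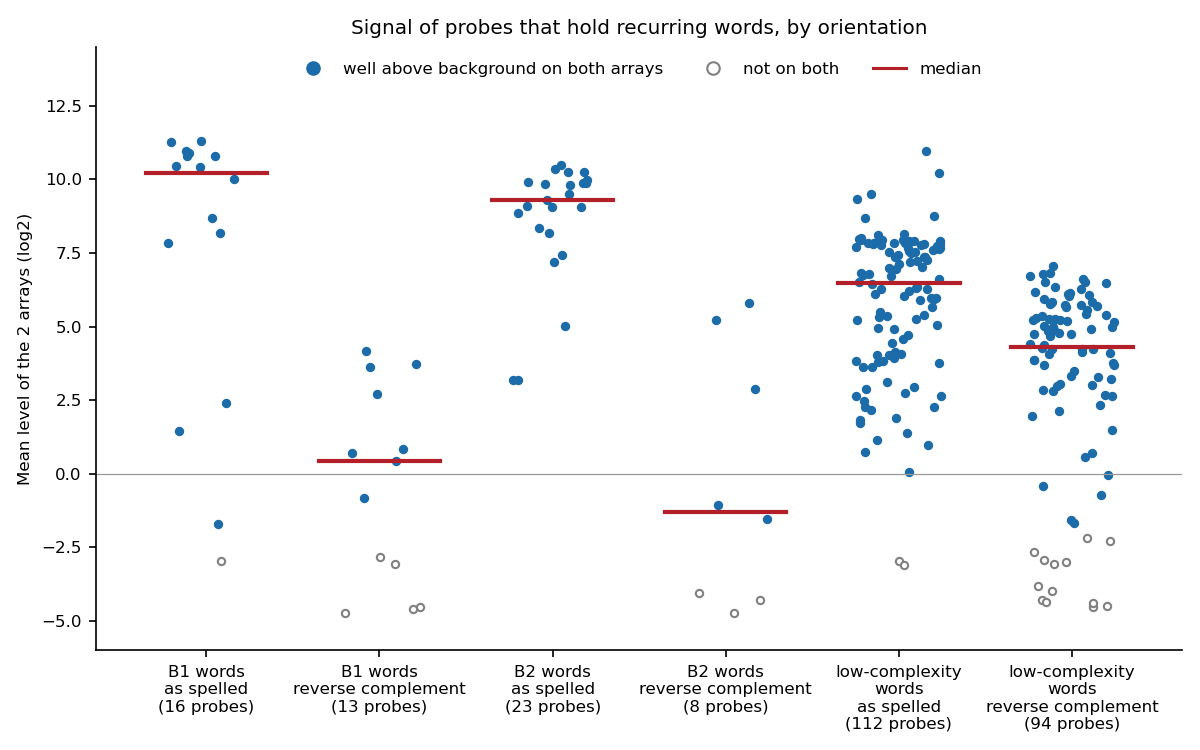
Mean level of the 2 arrays (log2, vertical axis) for every probe with a B1, B2 or low-complexity word, by the strand of the word that the probe carries; filled points were well above background on both arrays and the bar is the median. The medians for B1 are 10.22 as spelled and 0.42 reversed, and for B2 9.31 and -1.30.

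All 8 genes of the trypsinogen list with a probe were above background on both arrays and over level 4, and 7 were among the 100 brightest. The trypsinogen-like 1810009J06Rik was not on the list and is described further below. Trypsinogens are the inactive precursors of trypsin, the protease that activates the other zymogens. Try5 stood at 11.16 and 11.31, Gm5771 at 11.08 and 11.27, and Try4 at 10.55 and 10.70. Gm10334 followed at 10.42 and 10.54. Prss1 had 10.03 and 10.44, and Prss2 9.55 and 10.15. The lowest were Gm5409, at 8.95 and 9.36, and 2210010C04Rik, at 5.13 and 6.30. All 8 were brighter on replicate 2, by a median of 0.30. The difference of 2210010C04Rik was 2.25-fold.

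Several enzyme probes share runs with the probe of a relative, and their values cannot be assigned to 1 gene with certainty. Try4 and Try5 are shown because a run of 31 bases is common to both probes; 30 bases of each follow, with the first 18 bases of that run in capitals.
Try5: attgccGCAAACTAAGCATCCCTTtgaagt
Try4: attgctGCAAACTAAGCATCCCTTtgaagt
They lie at chr6:41261247-41261306 (minus strand) and chr6:41255472-41255531 (plus strand) in mm9. The longest shared run was 35 bases for Prss1 and Gm5409, 23 for Amy1 and Amy2a5, and 21 for Cela3b and the second probe of Cela3a, which stood at 10.74 and 10.95 and gave no value used for that gene. These were the only other pairs of enzyme genes with a run of at least 15.

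The chymotrypsins and elastases cut proteins after large or small hydrophobic residues, and all 7 genes passed on both arrays with levels over 4. Cela3b stood at 11.22 and 11.38, Ctrb1, chymotrypsinogen B, at 11.16 and 11.22, and Cela3a at 11.08 and 11.25. Cela2a had 9.74 and 9.98 and Cela1 7.60 and 7.69. Ctrl, the chymotrypsin-like enzyme, was at 6.57 and 7.32. Ctrc, chymotrypsin C, which can degrade trypsinogen, was lowest at 4.13 and 4.25, and its other probe was at -0.64 and -0.41. All 7 were brighter on replicate 2, none by 2-fold.

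Among carboxypeptidases, amylases and nucleases, 7 of 8 genes were above background on both arrays, and 5 were among the 100 brightest. Amy2a5, a pancreatic amylase, stood at 11.08 and 11.19, and the metallocarboxypeptidase Cpa1 at 10.97 and 11.27. Cpb1, carboxypeptidase B, followed at 10.37 and 10.56 and Amy1, the amylase of salivary gland and liver, at 10.29 and 10.28. Rnase1, pancreatic ribonuclease, was lower at 5.64 and 6.12, and Amy2a4 was at 0.94 and 0.99. Dnase1 was not well above background on either array.

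All 6 genes for the digestion of lipids were above background on both arrays, and 4 were over level 4. Clps, colipase, which anchors lipase on fat droplets, stood at 11.07 and 11.20, and Cel, the bile-salt-activated lipase, at 9.89 and 10.28. Pnliprp2, a lipase that also cleaves galactolipids, had 5.89 and 6.03. Pla2g1b, pancreatic phospholipase A2, had 3.45 and 3.56, but its other probe was at -0.38 and -0.64. Pnlip, the classical pancreatic triglyceride lipase, was at -0.07 and -0.79, above background on both arrays but below the 75th percentile. Its level rests on 1 probe at chr19:58755296-58755355. Pnlip was the only one of the 6 with a lower value on replicate 2.

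Over the 4 enzyme lists, 28 of 29 genes were above background on both arrays (54.4% over all genes) and 25 were over level 4 (6.67% over all genes). The median level of the 29 was 10.23. Of the 28, 26 were brighter on replicate 2, by a median of 0.16, against a median of 0.04 in the same direction over all genes above background.

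**Figure D2:**
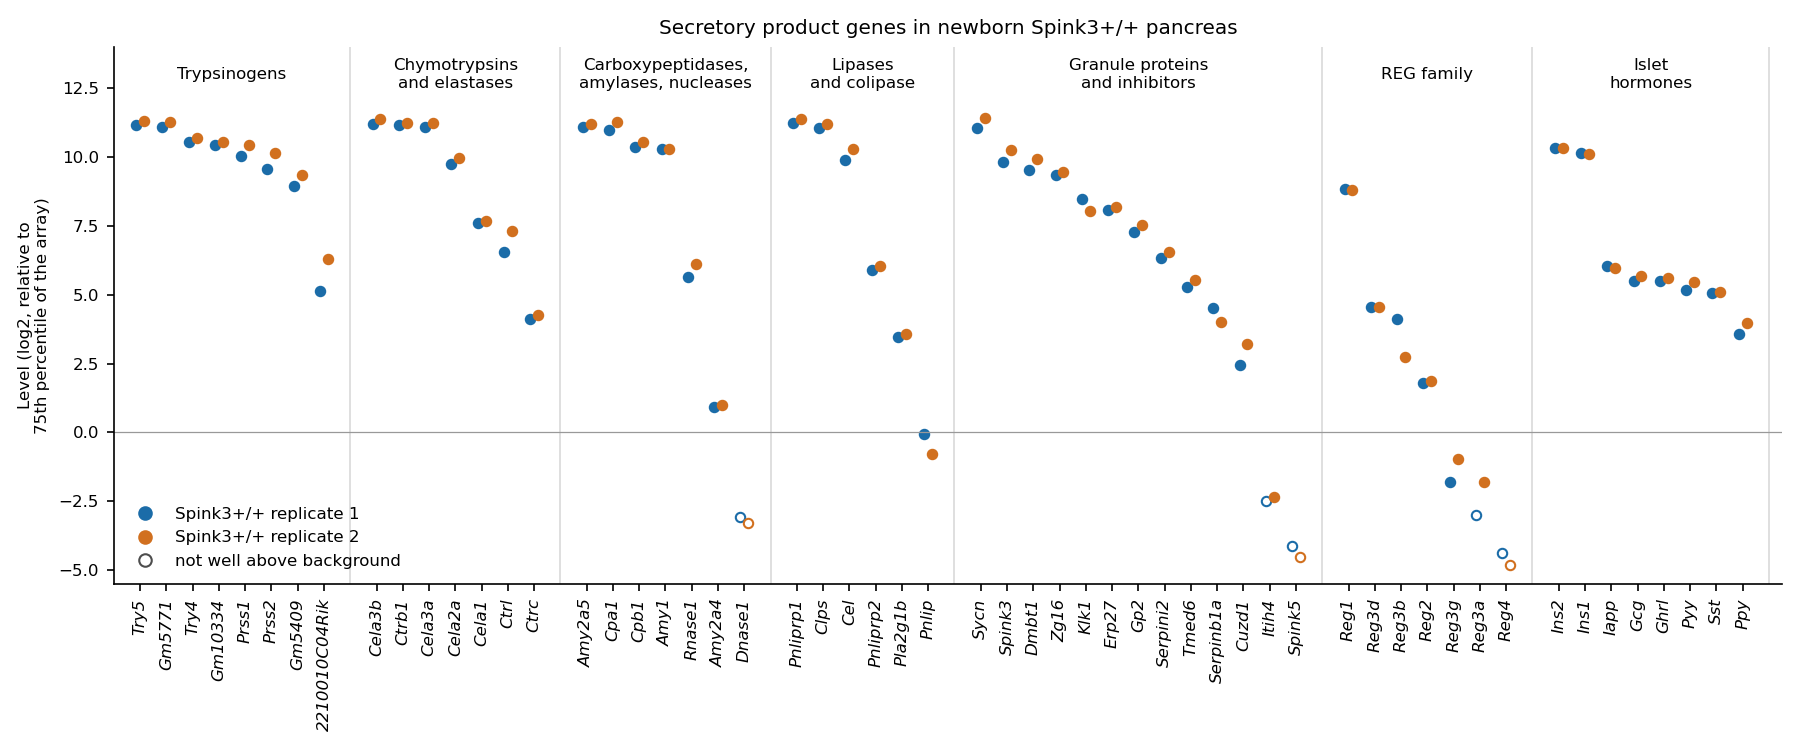
Level (log2 relative to the 75th percentile of the array, vertical axis) of the members of the enzyme, granule, REG and islet hormone lists, 1 gene left out, on replicate 1 (blue) and replicate 2 (orange); open points were not well above background. Most enzyme genes lie above level 9 on average, while Pnlip, Amy2a4 and Dnase1 lie below level 2.

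Granule proteins and secreted inhibitors were above background on both arrays for 11 of 13 genes, and 10 were over level 4. Sycn, syncollin of the zymogen granule membrane, stood at 11.05 and 11.42, a difference of 0.37 that moved it from 13th on replicate 1 to 2nd on replicate 2. Spink3 had 9.84 and 10.26 and was 40th by mean level among all genes. Dmbt1, a secreted scavenger receptor protein, had 9.55 and 9.93, and Zg16, a granule lectin, 9.35 and 9.46. Gp2, the major glycoprotein of the granule membrane, stood at 7.27 and 7.52. Spink5 was not well above background on either array.

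REG genes encode secreted lectin-like proteins that respond to pancreatic injury in adults. Reg1 stood at 8.85 and 8.82 and Reg3d at 4.56 and 4.57. Reg3b had 4.11 and 2.74, a 2.57-fold difference between the arrays, whereas Reg2 had 1.79 and 1.86. Reg3g was at -1.80 and -0.96. Reg3a was above background on replicate 2 alone and Reg4 on neither. The values of Reg1 and Reg3d thus differed by at most 0.03 between the arrays, and those of Reg3b by 1.36.

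The machinery that folds and exports these proteins was measured throughout. All 27 genes of the endoplasmic reticulum and translocation list were above background on both arrays, and 15 were over level 4. Pdia2, the pancreas-enriched protein disulphide isomerase, stood at 9.99 and 10.11. Sec61g, a subunit of the translocation channel, had 7.08 and 6.99, and Hspa5, the luminal chaperone BiP, 6.74 and 6.99. The level of Sec61b, 6.66 and 6.86, came from a probe with a low-complexity word, and its next probe was at 5.17 and 6.01. At the lower end, Hyou1 stood at -0.42 and -0.38. Of the 27, 24 were brighter on replicate 2, by a median of 0.20.

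Acinar and progenitor transcription factors were above background on both arrays for 17 of 18 genes, and 5 were over level 4. Rbpjl, the acinar partner of Ptf1a in the PTF1 complex, stood at 6.82 and 6.45, and Xbp1, which drives the secretory machinery, at 6.70 and 6.57. Nr5a2 had 4.77 and 4.76, but its second probe was at -1.66 and -1.56. Bhlha15, also called Mist1, had 4.72 and 4.14. Ptf1a itself was at 1.01 and 0.54. Foxa1 was not above background on either array. In contrast to the enzymes, 12 of the 17 were brighter on replicate 1, by a median of 0.24.

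The receptors and fusion proteins of regulated secretion were above background on both arrays for 14 of 17 genes (54.4% over all genes). Of them, 2 were over level 4 (6.67% over all genes). The brightest, Snap23, a membrane fusion protein, stood at 5.90 and 5.89 on a probe with a low-complexity word and at 2.20 and 2.04 on its next probe. Stxbp2 had 4.47 and 4.39. Itpr3, an inositol trisphosphate receptor of the acinar calcium signal, had 3.90 and 3.88, and Cckar, the receptor for cholecystokinin, 4.04 and 3.49. The muscarinic receptor Chrm3 was at -1.46 and -1.29, while Chrm1, Cckbr and Syt7 were not above background.

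Duct and epithelial genes were led by keratins. Krt18 stood at 8.20 and 7.97 and Krt8, its partner filament, at 6.22 and 6.66, with the next probe of Krt8 at 3.29 and 3.81. Acinar cells make both keratins as well. Aqp1, a water channel, had 3.88 and 3.73, Spp1, osteopontin, 3.52 and 3.60 and Krt19 3.07 and 3.40. Cftr, the chloride channel of ducts, was above background on replicate 2 alone. In all, 13 of 15 were above background on both (54.4% over all genes), and 2 were over level 4 (6.67% over all genes).

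All 8 islet hormone genes were above background on both arrays, and 7 were over level 4. Ins2 stood at 10.33 and 10.35 and Ins1 at 10.14 and 10.12, both among the 100 brightest genes. A gap of over 4 separated them from Iapp, amylin, at 6.04 and 5.97. Gcg, glucagon, had 5.50 and 5.67 and Ghrl, ghrelin, 5.51 and 5.60. Pyy, peptide YY, had 5.18 and 5.44 and Sst, somatostatin, 5.07 and 5.10. Ppy, pancreatic polypeptide, was lowest at 3.58 and 3.97. The largest difference between the arrays was the 0.39 of Ppy. Since probes differ in brightness, these values do not order the hormones by transcript amount.

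Other endocrine genes were weaker. Of 20 secretory and beta cell genes, 18 were above background on both arrays and 6 over level 4. Cpe, carboxypeptidase E, which trims prohormones, stood at 6.64 and 6.77, Chga, chromogranin A, at 5.83 and 5.73 and Chgb at 4.47 and 4.73. Slc2a2, the glucose transporter GLUT2, was low at -2.09 and -1.59. Ucn3, a marker of mature beta cells, was not above background on either array.

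Endocrine transcription factors were above background on both arrays for 13 of 17 genes (54.4% over all genes), none over level 4 (6.67%). Neurog3, which starts endocrine differentiation, stood at 3.87 and 3.54 on 1 probe, while its second probe was not above background. Mafa had 2.34 and 2.33 and Nkx6-1 1.68 and 1.74. Pdx1 and Pax6 differed between the arrays in opposite directions. Pdx1 was at -0.97 and 1.43, and Pax6 at 1.13 and -1.47, while the second probe of Pax6 was at -0.35 and -0.82. The values of Pdx1 were 5.25-fold apart, on its single probe.

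Stromal and vascular genes were measured next. Of 22 fibroblast, stellate cell and matrix genes, 20 were above background on both arrays (54.4% over all genes) and 9 over level 4 (6.67%). Sparc, a matrix glycoprotein, stood at 9.07 and 9.20, with its next probe at 5.10 and 5.24. The collagen Col1a2 stood at 8.22 and 8.32 and the proteoglycan Dcn at 7.07 and 7.15. Nkx3-2 and Barx1, factors of the early gut mesenchyme, were not above background. Endothelial genes passed for 15 of 16, led by Egfl7 at 7.0 and 6.98, Kdr, the VEGF receptor, at 6.66 and 6.81 and Robo4 at 4.13 on both arrays. The next probe of Kdr was at 2.80 and 3.03. Mesothelial genes passed for 5 of 8, a share of 62.5% near that over all genes, and the brightest, Msln, stood at 4.31 and 4.06.

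Blood genes were uneven. Hba-a2, an adult alpha-globin, stood at 11.23 and 10.75, the 2nd highest level on replicate 1 and the 20th on replicate 2. Hba-a1 had 9.63 and 8.46, and the adult beta-globin Hbb-bt 8.53 and 7.53. The embryonic globins Hbb-bh1 and Hba-x were not above background, and Hbb-y was on replicate 1 alone. Of the 17 erythroid genes, 9 were above background on both arrays, a share of 52.9% near the 54.4% over all genes. One of them, Hemgn, rests on a probe with a low-complexity word.

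White cell genes were lower. Neutrophil genes passed for 11 of 14 (54.4% over all genes). S100a9 stood at 6.27 and 6.89, S100a8 at 4.21 and 4.64 and Camp at 3.00 and 2.91. Macrophage genes passed for 15 of 16 (54.4% over all genes). The brightest, Itgam, had 6.54 and 6.50 on a probe with a low-complexity word and only -0.72 and -0.75 on its next probe. Csf1r, the receptor for macrophage colony-stimulating factor, had 4.82 and 4.98, with its next probe at 2.08 and 2.04. C1qc had 2.30 and 2.37.

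Lymphocyte genes passed for 7 of 17, a share of 41.2% against 54.4% over all genes. Cd3e stood at 4.04 and 4.11 and Cd4 at 3.77 and 3.70, but Cd3d, Cd3g and Cd8a were not above background on either array, nor was the second probe of Cd4. Nkg7 had 2.57 and 2.65, but its other probe was at -3.59 and -4.91, likewise not above background. Mast cell genes passed for 6 of 9, a share of 66.7% against 54.4% over all genes. Tpsb2 stood at 1.88 and 1.97, Cpa3 at 1.74 and 1.80 and Mcpt4 at 1.10 and 1.91.

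Lists of neighbouring organs were mostly dim. The intestine list passed for 2 of 12 genes (Vil1 at 0.86 and 1.70, Tff3 at -1.27 and -1.60) and the stomach list for 2 of 10. The exception in the latter was Tff2, a trefoil peptide, at 5.72 and 5.61. Striated muscle genes passed for 4 of 14, led by Tnnt1 at 0.61 and 0.90, and adipocyte genes for 5 of 12, led by Fabp4, also made by endothelium, at 4.15 and 4.24. Adipoq and Plin1 were not above background.

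Liver genes passed for 13 of 15, although only Ambp, at 5.97 and 5.95, and Trf, transferrin, at 4.82 and 5.41, exceeded level 4. Alb, albumin, stood at -0.23 and 0.35. Nerve and glia genes passed for 9 of 15, a share of 60% near the 54.4% over all genes, with Th at 1.64 and 2.11. The spleen anlage and adrenal list passed for 2 of 6, with Nr5a1 at 0.19 and 0.30 and Cyp21a1 at -0.13 and 0.05. The shares of the spleen and adrenal, lymphocyte, adipocyte, muscle, intestine and stomach lists that passed lay below the 54.4% over all genes. So did that of the sex-linked genes, while the erythroid share of 52.9% was near it.

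Imprinted genes are expressed from 1 parental copy and often regulate growth. Of 21 genes, 19 were above background on both arrays (54.4% over all genes) and 8 over level 4 (6.67% over all genes). H19 stood at 8.85 and 8.86, and its next probe at 6.60. Cdkn1c, a cell cycle inhibitor, had 7.53 and 7.69. Meg3 had 7.61 and 7.56, with its next probe at 2.63 and 2.50. Igf2, the neighbour of H19, was at 2.50 and 2.21 on its single probe. Among 15 fetal growth and RNA-binding genes 14 passed, with Hmga1 at 4.47 and 4.68, Sox4 at 3.62 and 3.75 and Igf1 at 3.47 and 3.82. With the median of its probes, Hmga1 had a mean level of -0.68.

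Cell cycle genes were above background on both arrays for 24 of 28 (54.4% over all genes), and 3 were over level 4 (6.67%). Cdk4 stood at 4.29 and 4.57, the proliferation marker Mki67 at 4.20 and 4.11 and Mcm6, part of the replicative helicase, at 3.88 and 4.30. Immediate early genes, which respond within minutes to handling and stress, passed for 12 of 21, a share of 57.1% near the 54.4% over all genes. Jund stood at 5.61 and 5.66, Jun at 5.40 and 5.41 and Klf6 at 3.97 and 3.79, whereas Fos, Junb and Egr2 were not above background on either array.

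All 20 genes of all cells were above background, with Actb at 9.54 and 9.86, Rplp0 at 9.64 and 9.72 and Ppia at 8.13 and 8.40. Of these 20, 19 were brighter on replicate 2, by a median of 0.28, a shift close to that of the trypsinogens. Xist, the RNA of the inactive X chromosome, was above background on both arrays at 2.15 and 2.05, while the Y-linked Uty, Ddx3y, Kdm5d and Eif2s3y were above background on neither.

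**Figure D3:**
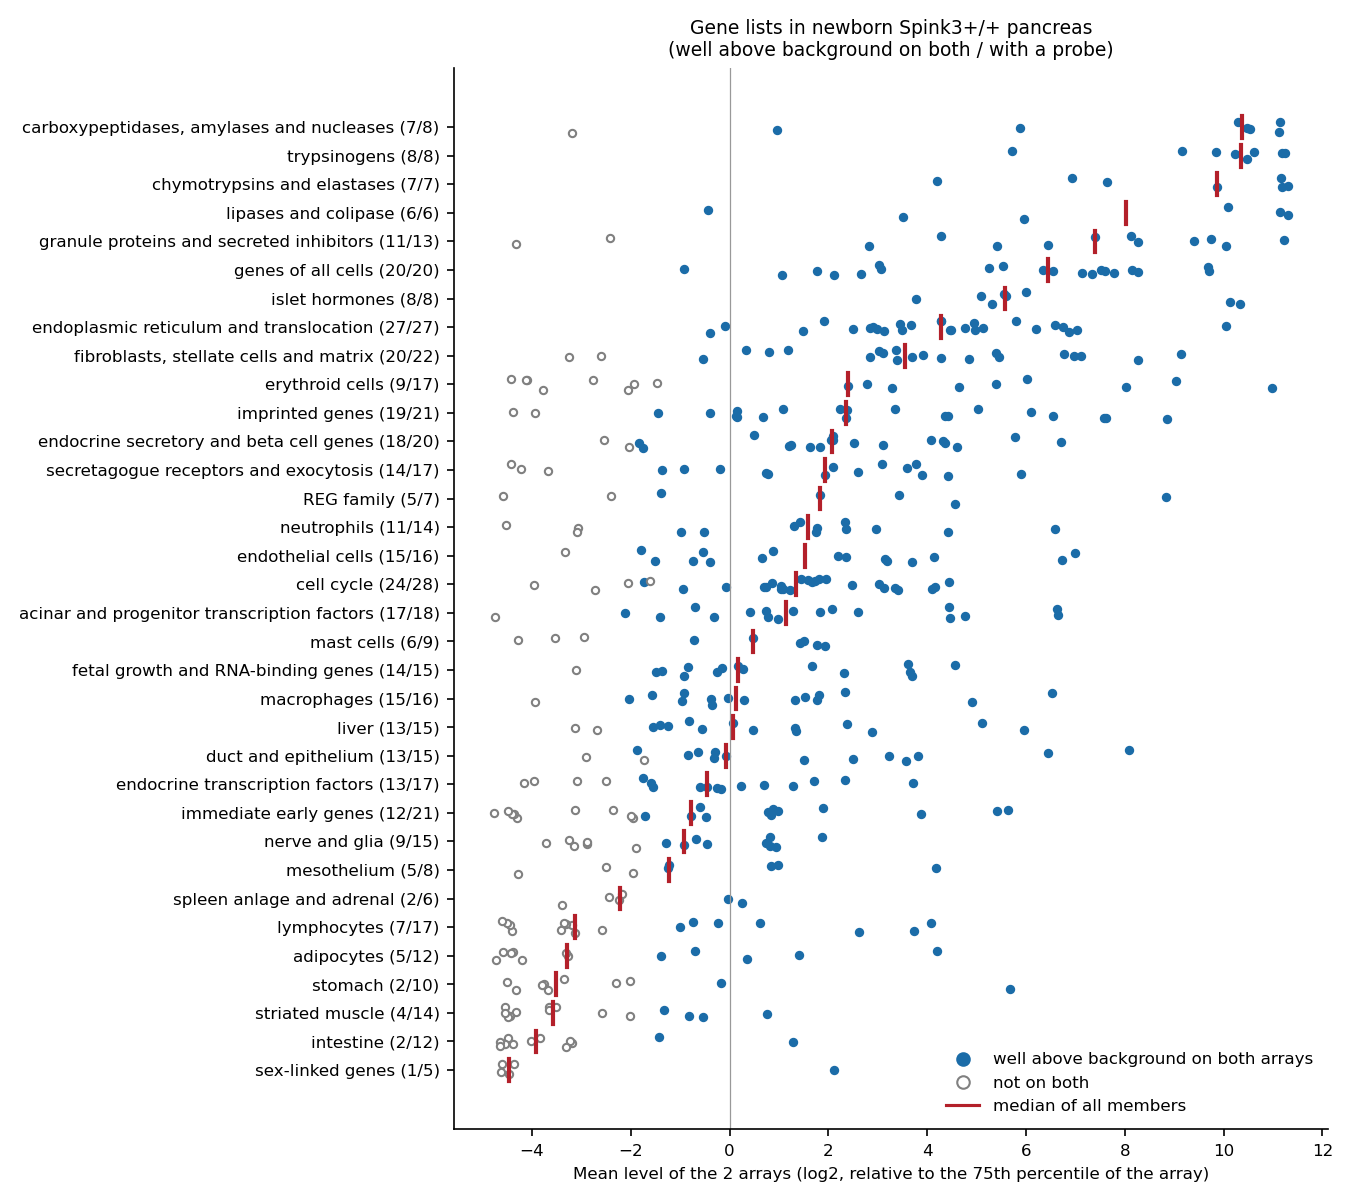
Mean level of the 2 arrays (log2 relative to the 75th percentile of the array, horizontal axis) for every member of the 34 gene lists, ordered by the median of all members (bar); open points were not well above background on both arrays, and the counts after each name give those that were and the genes with a probe. The enzyme lists lie at the top, and the intestine, muscle and stomach lists near the bottom.

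The differences between the 2 Spink3+/+ arrays are the only measure of error between samples in this group; repeated spots of a probe within an array had a median SD of 0.084 and 0.079. Of 12687 genes, 181 (1.43%) were over 2-fold brighter on replicate 1 and 121 (0.954%) on replicate 2. These 302 became 113 with another background correction, which adds 50 to every signal. They became 1329 when genes above background on a single array were let in. Most were dim: 198 of the 302 had a mean level under 0, where 4.76% of genes were over 2-fold apart, against 0.512% between levels 2 and 4, 1.09% between levels 4 and 8 and 1.08% above. The median difference fell from 0.24 under level 0 to 0.11 over level 8.

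Some of the widest differences concerned named genes of known function. S100g, a calcium-binding protein, was at -1.55 and 1.91, 10.95-fold apart, and its second probe leaned the same way. Trpv6, an epithelial calcium channel, was at -0.04 and 2.49. With a plain symbol, Pcgf1, Ccl19, Itga3, Hinfp, Ctsg, Pnpt1, Kcnt1 and Pdx1 complete the 10 largest differences toward replicate 2, all between 5.25-fold and 7.86-fold. Toward replicate 1, Lpcat1 was at 1.58 and -1.86, and Cd38, an ADP-ribosyl cyclase, at 1.80 and -1.61. Gcc1, Gpr179, Syne1, Il17ra, Vps50, Lrrc69, Ccnh and Zw10 followed, between 6.62-fold and 10.5-fold. These 20 genes with a plain symbol had a mean level under 2; 1810009J06Rik, described next, differed by more than some of them. The next probes of Ccl19 and Syne1 showed no difference of that size. The lowest levels called above background were -2.22 on replicate 1 and -2.65 on replicate 2. The next probes of Hinfp, Kcnt1, Gcc1, Lrrc69 and Lpcat1 (-3.62 and -3.05) lay under these levels on both arrays. Those probes therefore cannot show whether the difference recurs. The next probe of Pnpt1, at -2.05 and -3.004, lay under the lowest level on replicate 2 alone. It leaned toward replicate 1, so it did not repeat the difference toward replicate 2.

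Only 17 genes with a mean level over 4 were over 2-fold apart, and those named here were chosen after their values were seen. The widest was the trypsinogen-like 1810009J06Rik, at 6.51 and 9.17, or 6.32-fold, with its second probe at 0.84 and 4.29. Ptms had 4.25 and 6.50 and Lepr, the leptin receptor, 4.62 and 6.56, although other probes of Lepr were at most -2.36 and -2.10. On the other side were the metallothioneins, small metal-binding proteins, with Mt2 at 6.89 and 4.49 and Mt1 at 9.16 and 7.58. The 17 also held the globins Hba-a1, Hbb-b2 at 6.73 and 5.31, and Hbb-bs at 5.40 and 3.90; globin copies are near-identical, so these values cannot be assigned to 1 copy with certainty.

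**Figure D4:**
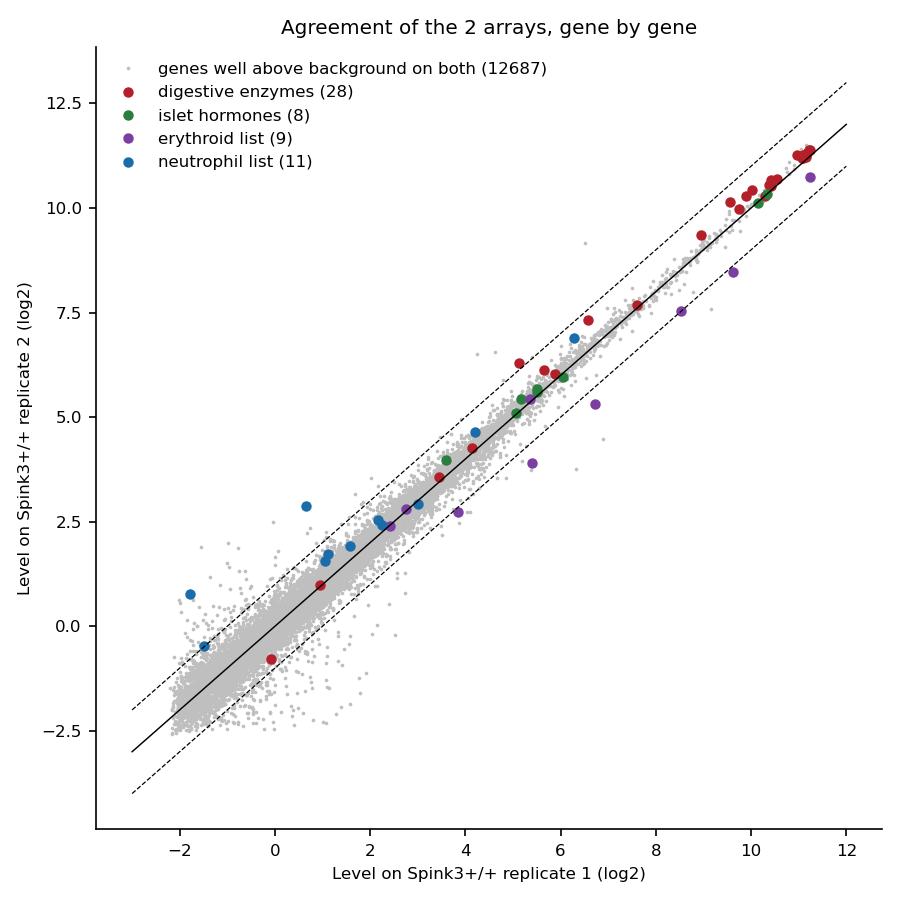
Level on replicate 2 against level on replicate 1 (both log2) for the 12687 genes above background on both arrays, with enzymes, islet hormones, erythroid and neutrophil genes in colour; the solid line is equality and the dashed lines 2-fold. Bright globins lie below the line of equality, and 26 of the 28 enzymes above it.

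The erythroid and neutrophil lists held the largest median differences between the arrays. The medians of the macrophage, lymphocyte and mast cell lists were only -0.16, -0.08 and -0.19. Of the 9 erythroid genes above background on both, 7 were brighter on replicate 1 and 4 by over 2-fold (1.43% over all genes), with a median difference of 1.00. Globin probes and Alas2, the first enzyme of haem synthesis in red cells, made up those 4 and the next widest, whereas Ahsp stood at 2.41 and 2.40 and Slc4a1 at 2.75 and 2.82. Among erythroid genes above background on 1 array, Rhag was at -4.43 and 0.55 and Gata1 at -2.29 and -0.65, toward replicate 2. The neutrophil genes leaned the other way, with 10 of 11 brighter on replicate 2, 3 by over 2-fold (0.954% over all genes), and a median of 0.51. Retnlg, a neutrophil resistin-like gene, stood at 0.66 and 2.87 and Ctsg, cathepsin G, at -1.79 and 0.76. No other list with at least 4 genes above background had a median difference beyond 0.35 in either direction.

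**Figure D5:**
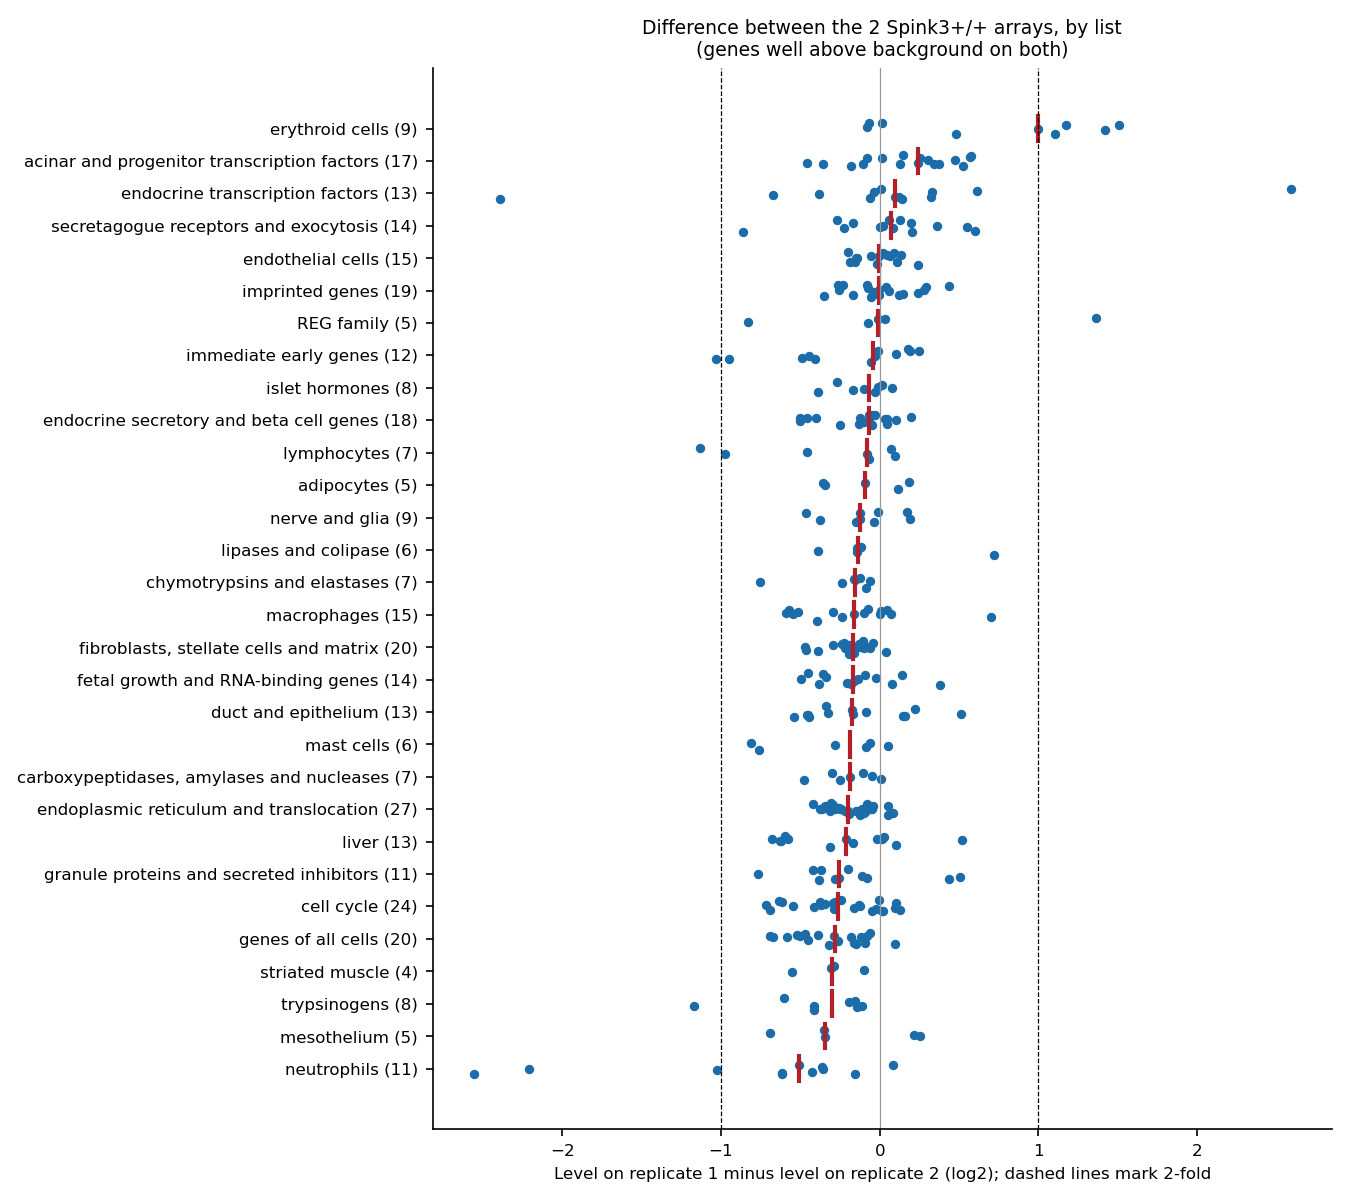
Level on replicate 1 minus level on replicate 2 (log2, horizontal axis) for list members above background on both arrays, in lists with at least 4 such genes; the bar is the median and dashed lines mark 2-fold. Erythroid genes have a median of 1.00 and neutrophil genes of -0.51.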

How the data were processed

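The Spink3+/+ group was taken from the labels. Per the file headers, the authors' deposited intensity values come from Agilent Feature Extraction (10.7.3.1, per the submitters' processing notes) and are linear, background-subtracted and not scaled between arrays, with coordinates on mm9. A small substitute stands for spots too dim to measure. From the 59305 spots that are not controls, outlier spots left out, log2 signals were taken, the 75th percentile of each array (138 and 128) was subtracted and spots were averaged to 55681 probes. Of the spots, 43.4% and 46.4% were well above background by the deposited flag. Probes were named through RefSeq (26761 by accession, 3819 by symbol, 639 by an older symbol), 1184 kept the file's name, Spink3 kept the labels' name, and 23277 were unnamed. Of 496 list entries, 484 matched. Named were the 30 brightest plain symbols, the 3 brightest members of each list (all members of the trypsinogen, chymotrypsin, lipase, REG, hormone and sex-linked lists), the 10 widest differences each way, and Spink3; other names were added after values were seen. Members and lists were chosen with earlier results of these data known. Calculations, tested on simulated data, used Python 3.11.15 with pandas 2.3.3 and limma 3.58.1 in R 4.3.3 for the normexp alternative. A gene of the carboxypeptidase list and one of the duct list are counted but not reported here. No test was made, since there is 1 group of 2 samples.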

Additional observations from a re-analysis of the deposited data

How the results depend on the processing

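No paired analysis was possible because the values come from 1 group and from no test. The number of enzyme genes among the 100 brightest was 19 under each alternative run: normexp background correction, the median of a gene's probes, detection on either array, quantile normalization, the series' value table (the same signals), each array left out, and, added after seeing the data, probes with a recurring word left out. Genes over level 4 ranged from 1091 with the median of probes to 1585 without replicate 1, and genes above background from 12598 without the recurring words to 14535 with either array. The 302 genes over 2-fold apart became 113 with normexp, 469 with the median of probes and 1329 with either array. The either-array count adds genes whose dim value is at background. Without 1 array no such count exists. Normexp was run with an offset of 50 added to every signal, which by itself raises dim values and narrows their differences. Normexp lowered the levels of genes above background by a median of 0.24 and raised the medians of the lymphocyte, muscle, adipocyte, intestine, stomach, spleen and adrenal, and sex-linked lists by 1.17 to 2.82, with the intestine at -1.39. With the median of probes, the secretagogue list's median fell from 1.93 to -0.36 and 39 of 159 named genes fell by over 1, among them Neurog3 to -0.42, H19 to 4.49 and Cd4 to 0.13. Without the recurring words, 14 of 158 did, and the erythroid list's median fell from 2.40 to 0.47. That fall came from Hemgn leaving the list, since its only probe holds a word. No other erythroid level changed. Signal over background limits dim genes: the lowest levels called above it were -2.22 and -2.65.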

Other observations

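Of the 100 brightest probes, 19 had no gene name here. The brightest of them stood at 10.31 and 10.49, and 3 of the 19 held a recurring word. The probes with a recurring word together held 12.04% and 11.97% of the summed signal of all probes on replicates 1 and 2.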
